A study of Mus musculus with 21 samples.

Results

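Short introns, taken here as annotated introns of protein-coding genes with a length of 200 nt or less, were examined for contacts of the RNA-binding protein RBM10. Of 229775 annotated introns of protein-coding genes in mouse (build mm9, GENCODE vM1), 30763 (13.4%) met this limit. They were chosen by length alone, and bases that any annotated exon covered on the same strand were removed. That left bases in 24422 of them, while 6341 were covered in full and could not be measured. Overlapping short introns of 1 gene were joined, which gave 24390 measurable intron loci in 8804 genes. Before that removal, 10059 of 19484 genes with an intron (51.6%) held at least 1 short intron. Lengths had a median of 106 nt, against 1789 nt for the 199012 longer introns, and 2221 were under 60 nt, 2505 were 60 to 79 nt, 8856 were 80 to 99 nt, 10226 were from 100 to under 150 nt and 6955 were 150 to 200 nt. The ends were GT and AG in 96.7% of those of 60 nt or more, in 7.43% of those under 60 nt and in 97.7% of longer introns.

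An intron is recognised through its 5′ splice site, a branch point and a 3′ splice site with a pyrimidine tract before it. In a short intron these signals lie close together, and the splice sites can be paired across the intron, whereas in long introns pairing often starts across the exon. RBM10 is an X-linked splicing regulator found with spliceosomal complexes that contain the U2 snRNP, the particle that binds the branch point. Its loss in humans causes TARP syndrome, in which the lower jaw and palate are affected.

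Contacts were measured by iCLIP, in which UV light links proteins to RNA in living cells, the protein is precipitated and the linked nucleotide is read from where reverse transcription stopped. All libraries came from mandibular MEPA cells, an immortalised line of the mouse embryonic pharyngeal arch made from embryos of CD1 females and an Immortomouse male, a strain with a temperature-sensitive T antigen transgene that interferon induces. The cells were grown at 33 °C with 100 U per ml of interferon and were irradiated once with 400 mJ per cm2 at 254 nm. No library in these comparisons came from a knockout. The 4 RBM10 libraries came from 4 independent experiments with an antibody to RBM10, and the 4 IgG libraries from precipitations with rabbit IgG, 1 for each experiment and, per the labels, each from its own antibody lot. The RBM10 libraries were sequenced together on 1 lane and the IgG libraries on another, so the lane is confounded with the antibody throughout, and their effects cannot be told apart.

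The sequences of the introns with the lowest p in the test by locus follow, with 1 intron of Ndufs7 that held the most RBM10 crosslinks of all short introns. Each runs 5′ to 3′ on the transcribed strand in build mm9 and is an intron of the named gene. Capitals mark positions crosslinked in all 4 RBM10 libraries.
Thbs1, chr2:117945772-117945957, plus strand: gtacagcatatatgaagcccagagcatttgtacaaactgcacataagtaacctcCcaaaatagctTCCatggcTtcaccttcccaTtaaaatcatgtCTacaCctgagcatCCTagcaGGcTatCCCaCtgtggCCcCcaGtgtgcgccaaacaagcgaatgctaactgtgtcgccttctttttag
Mak16, chr8:32276686-32276845, minus strand: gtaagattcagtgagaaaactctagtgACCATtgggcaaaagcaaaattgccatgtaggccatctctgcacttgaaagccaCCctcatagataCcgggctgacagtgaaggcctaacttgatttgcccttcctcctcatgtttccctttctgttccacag
Ankrd1, chr19:36189788-36189962, minus strand: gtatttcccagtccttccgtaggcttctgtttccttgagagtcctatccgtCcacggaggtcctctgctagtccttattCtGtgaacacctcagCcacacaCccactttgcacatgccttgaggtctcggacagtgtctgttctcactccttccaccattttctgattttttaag
Flna, chrX:71474532-71474719, minus strand: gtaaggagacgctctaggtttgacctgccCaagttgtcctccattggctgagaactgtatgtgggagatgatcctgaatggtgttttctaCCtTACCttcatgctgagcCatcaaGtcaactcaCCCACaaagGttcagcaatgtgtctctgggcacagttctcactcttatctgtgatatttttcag
Thbs1, chr2:117948838-117949003, plus strand: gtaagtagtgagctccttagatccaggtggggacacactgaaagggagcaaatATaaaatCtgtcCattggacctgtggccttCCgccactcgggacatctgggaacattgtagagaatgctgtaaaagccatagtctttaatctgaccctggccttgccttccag
Vrk1, chr12:107294121-107294230, plus strand: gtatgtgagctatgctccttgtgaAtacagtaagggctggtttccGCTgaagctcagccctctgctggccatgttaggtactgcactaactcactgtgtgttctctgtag
Ddb1, chr19:10702149-10702251, plus strand: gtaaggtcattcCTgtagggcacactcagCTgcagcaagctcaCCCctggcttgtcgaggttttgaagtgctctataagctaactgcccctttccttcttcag
Ndufs7, chr10:79711950-79712056, plus strand: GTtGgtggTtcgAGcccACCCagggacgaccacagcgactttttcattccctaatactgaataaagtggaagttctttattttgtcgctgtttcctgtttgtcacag
In the first 7 of these introns, 43 of 68 capitals are C (63.2%), and none lies closer than 46 nt to the 3′ splice site, where distance 1 is the last base of the intron. In the intron of Ndufs7 the 10 capitals lie in the first 21 nt, and 3 of them are C. The first intron of Thbs1 shown has 23 such positions, between 46 and 132 nt before the 3′ splice site. Across all short introns, 1189 positions in 659 loci were crosslinked in all 4 RBM10 libraries, and 1 position was crosslinked in all 4 IgG libraries, of which libraries 3 and 4 are shallow.

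Depth was 774816 to 2847066 crosslinks in RBM10 and 103017 (library 3), 157986 (library 4), 965090 (library 1) and 2214515 (library 2) in IgG libraries. Short introns received 188165 RBM10 and 10424 IgG crosslinks in all, of which IgG libraries 3 and 4 gave 327 and 427. Levels are given as CPM, crosslinks for every 1000000 in the library. A single crosslink in IgG library 3 equals 9.71 CPM, and a count of 0 there allows up to 29.1 CPM, so a 0 in 1 intron of that library says little. In RNA-seq of the wild-type line, 7 of 12 markers of mandibular arch mesenchyme reached 1 TPM (summed 4635 to 4928 TPM in 3 samples). Most of that sum was Vim, Col1a2 and Col1a1 (means of 3207, 984 and 435 TPM). Twist1, Prrx1, Prrx2 and Msx1 were at 6.78 to 57.4 TPM. Hand2, Msx2 and Alx4 were at 0, and Dlx5 and Pdgfra at 0.0139 and 0.242 TPM. None of 6 epithelial, 4 endothelial or 4 skeletal muscle markers reached 1 TPM, 1 of 3 leukocyte markers did (Cd68, mean 1.52 TPM), and of 3 neural markers Tubb3 did (34.8 TPM) with Sox10 and Elavl3 at 0.

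RBM10 libraries held a larger share of their crosslinks in short introns than IgG libraries. The share was 2.15, 1.75, 3.25 and 2.84% in RBM10 libraries 1 to 4 and 0.417, 0.255, 0.317 and 0.270% in the IgG libraries. The lowest RBM10 library lay above the highest IgG library, and RBM10 was higher in 4 of 4 pairs. The counting error was small, since the 95% Wilson interval of IgG library 3, the shallowest, was 0.285 to 0.354%. Group means were 2.50 ± 0.673% and 0.315 ± 0.0733% (SD, n = 4 each), a difference of 2.18 points with a 2-sided exact permutation p of 0.0286, the smallest that 70 splits allow. Sign flips of the 4 pairs, which cannot go below 0.125, gave an exact p of 0.125 here and for every other comparison of all 8 libraries below that reached 0.0286. Short introns make up 0.306% of intronic bases. Their crosslink density was 8.81 ± 2.37 CPM per kb in RBM10 and 1.11 ± 0.259 in IgG (SD, n = 4 each), a ratio of 7.92.

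Within each library, density in short introns was compared with that in longer introns, which removes depth. RBM10 libraries were at 3.61, 3.38, 3.94 and 3.95 on the log2 scale and IgG libraries at 1.57, 0.85, 1.15 and 1.06, with no overlap. The means of 3.72 ± 0.28 and 1.16 ± 0.30 (SD, n = 4 each) differed by 2.56, or 5.90-fold (exact permutation p = 0.0286). Exons of the same genes served as a second reference, since they share the genes' transcription. Against them, short introns were denser in the 4 RBM10 libraries (log2 ratios 1.33, 1.00, 2.05 and 2.02) and sparser in the 4 IgG libraries (-1.16, -1.85, -1.41 and -1.48), a difference of 3.08 (exact permutation p = 0.0286).

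A short intron consists wholly of bases near a splice site, so it was also set against the outer 100 nt of longer introns. Here the difference between antibodies was small and did not pass the test. The log2 ratio was 0.63, 0.56, 0.48 and 0.53 in RBM10 and 0.63, 0.44, 0.41 and 0.32 in IgG libraries, and the highest single value was that of IgG library 1. Means of 0.55 ± 0.06 and 0.45 ± 0.13 (SD, n = 4 each) differed by 0.10 (exact permutation p = 0.229). Without IgG library 1 the difference was 0.16 with an exact permutation p of 0.0286, so this call rested on that library.

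**Figure D1:**
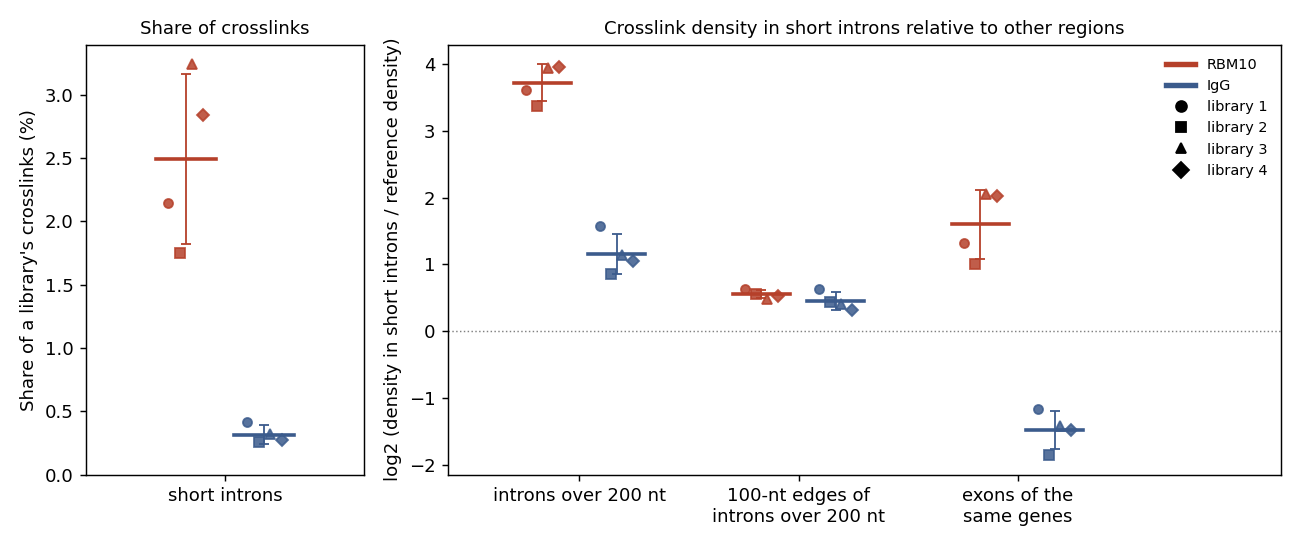
Left, percent of each library's crosslinks in short introns. Right, log2 ratio of crosslink density in short introns to that in introns over 200 nt, in their outer 100 nt and in exons of the same genes. Points are libraries, horizontal lines means and bars SD (n = 4 each). RBM10 (2.50%) and IgG (0.315%) shares do not overlap, nor do the ratios to longer introns and to exons, whereas the ratios to intron edges do.

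Density varied with length among the short introns. RBM10 density was 6.52 ± 1.48 CPM per kb under 80 nt, 6.37 ± 1.56 at 80 to 99 nt, 9.51 ± 2.57 from 100 to under 150 nt and 10.1 ± 2.87 at 150 to 200 nt (SD, n = 4 each). In each of the 4 RBM10 libraries the 2 bins from 100 nt up were denser than the 2 below. IgG density was 1.04 ± 0.361, 1.08 ± 0.191, 1.18 ± 0.287 and 1.07 ± 0.299 in the same bins. The log2 difference between antibodies was 2.70, 2.55, 3.00 and 3.22 (exact permutation p = 0.0286 each, 0.0286 after adjustment over 7 bins). Introns over 200 and up to 500 nt, just outside the limit, were close to these values at 7.33 ± 2.11 and 0.969 ± 0.169, and those over 500 and up to 2000 nt were at 2.58 ± 0.647 and 0.741 ± 0.0498. Above 2000 nt the order turned, with 0.417 ± 0.0254 in RBM10 and 0.463 ± 0.0198 in IgG (exact permutation p = 0.0286), a call that ended without any 1 of the RBM10 libraries (0.0571 each).

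**Figure D2:**
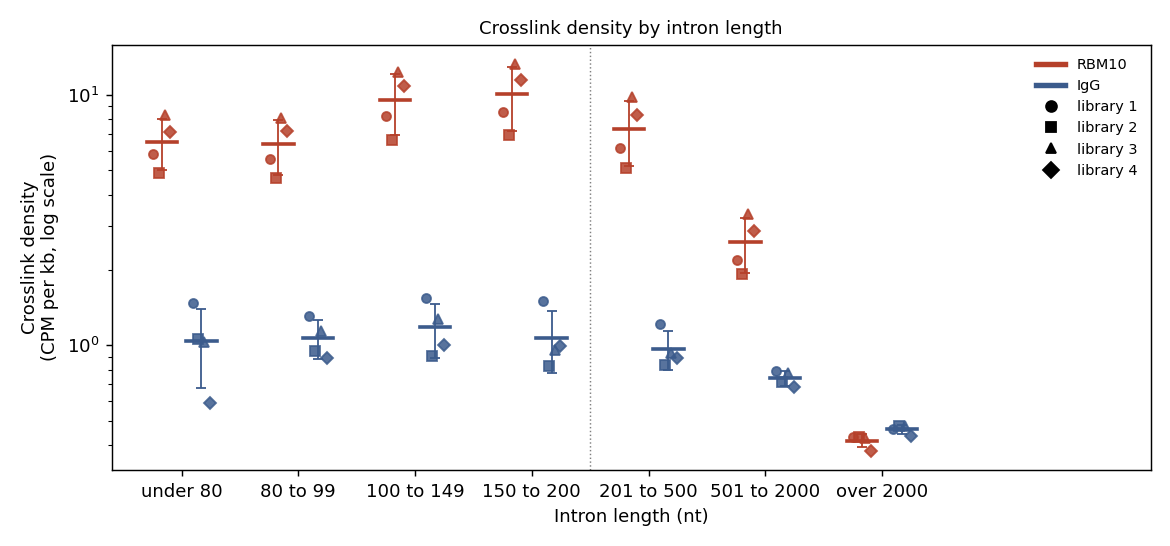
Crosslink density in CPM per kb, on a log axis, by intron length, with the 200-nt limit as a dotted line. Points are libraries, lines means and bars SD (n = 4 each). RBM10 lies above IgG in every bin up to 2000 nt, from 6.52 against 1.04 under 80 nt to 2.58 against 0.741 over 500 nt.

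Along short introns, RBM10 crosslinks were densest 56 to 65 nt before the 3′ splice site. Density there was 19.3 ± 5.73 (56 to 60 nt) and 18.8 ± 5.93 (61 to 65 nt) CPM per kb, against 1.504 ± 0.725 and 1.23 ± 0.559 in IgG (SD, n = 4 each). Closer to the 3′ splice site it fell to 7.94 ± 2.34 at 46 to 50 nt, 4.34 ± 0.947 at 41 to 45 nt and 2.87 ± 0.644 at 36 to 40 nt. IgG had a small local maximum, from 0.605 ± 0.168 at 36 to 40 nt to 1.504 at 56 to 60 nt and 0.910 ± 0.455 at 76 to 80 nt. At 56 to 60 nt it was highest in IgG library 1 (2.50) and lowest in library 2 (0.833). Mean IgG density was higher at 1 to 5 nt (2.31 ± 0.597) and at 91 to 95 nt (1.73 ± 0.286). In most mammalian introns the branch point lies within the last stretch before the 3′ splice site. In longer introns RBM10 density at the 2 densest windows was 20.1 ± 6.79 and 20.2 ± 6.87, within the spread of the short-intron values. Over 51 to 70 nt before the 3′ splice site, a window set after the profile was seen, RBM10 density was 14.5, 11.6, 23.3 and 19.5 in short introns and 14.4, 11.9, 25.5 and 20.7 in longer ones. IgG density was 1.98, 0.754, 1.35 and 1.10 in short and 1.40, 0.533, 0.963 and 0.874 in longer introns. The log2 ratio of short to longer was thus -0.06 ± 0.06 in RBM10 and 0.46 ± 0.08 in IgG (SD, n = 4 each), a difference of -0.51 (exact permutation p = 0.0286), opposite in sign to the comparison with whole edges. In the last 40 nt, short introns held 2.96 ± 0.284 in RBM10 and 1.19 ± 0.173 in IgG, and longer ones 1.63 ± 0.158 and 0.920 ± 0.0750.

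From the 5′ splice site, RBM10 density in short introns went from 3.45 ± 1.32 in the first 5 nt to 12.6 ± 3.33 at 36 to 40 nt, and IgG stayed between 0.508 and 1.64 in every 5-nt window of the first 100 nt. Short introns of 80 to 200 nt with GT and AG ends were divided into 4 zones. The middle, between the first 30 and the last 50 nt, makes up 35.3% of their bases and held 60.5, 59.6, 63.7 and 61.4% of RBM10 and 43.7, 30.7, 36.9 and 42.8% of IgG crosslinks. The zone from 50 to 16 nt before the 3′ splice site held 12.0 ± 0.960% against 23.3 ± 4.86%, and the last 15 nt, where the pyrimidine tract ends, 4.51 ± 1.33% against 18.5 ± 3.54% (SD, n = 4 each). For these 3 zones the groups did not overlap (exact permutation p = 0.0286, adjusted 0.0381). The first 30 nt held 22.2 ± 0.828% against 19.7 ± 3.01%, which overlapped (a difference of 2.52 points, exact permutation p = 0.229). With each position counted once this difference was 4.04 points (exact permutation p = 0.0286), so that all 4 zones passed, and it was 1.25 points without IgG library 3.

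**Figure D3:**
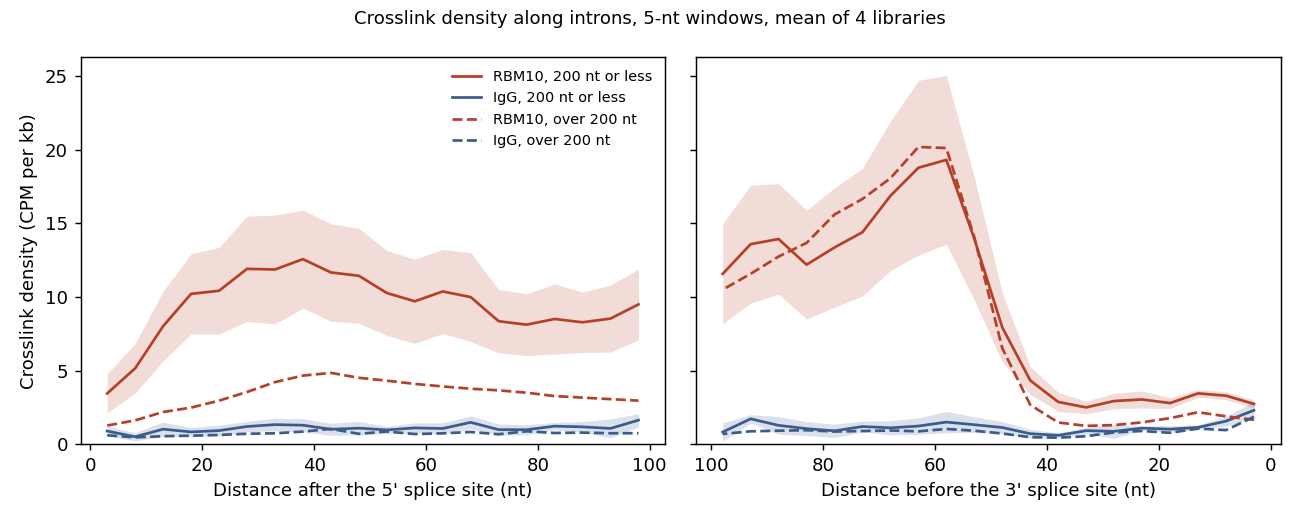
Crosslink density in CPM per kb in 5-nt windows after the 5′ splice site (left) and before the 3′ splice site (right). Lines are means of 4 libraries, solid for short and dashed for longer introns, and shading is SD for short introns. RBM10 peaks at 56 to 65 nt before the 3′ splice site (19.3 in short introns). IgG has a small local maximum in the same place (1.504 at 56 to 60 nt) but is higher at 1 to 5 nt (2.31).

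The distance of the densest stretch from the 3′ splice site stayed nearly constant as introns grew longer. In GT-AG introns of 80 to 99 nt (7267 introns) the densest 10-nt window was 51 to 60 nt before the 3′ splice site, at 13.3 ± 3.98 CPM per kb. In each of the 5 classes from 100 to 200 nt (2128 to 4155 introns each) it was 61 to 70 nt, at 18.03 ± 6.09 for 100 to 119 nt and up to 24.6 ± 7.95 for 180 to 200 nt. RBM10 library 1 was the exception, with 51 to 60 nt in the classes 140 to 159 and 160 to 179 nt. Measured from the 5′ splice site, the densest window moved with length, from 21 to 30 nt in introns of 80 to 99 nt to 41 to 50, 61 to 70, 81 to 90, 81 to 90 and 121 to 130 nt in the next 5 classes. In introns of 160 to 179 nt, libraries 2 and 4 had it at 101 nt onwards. IgG density in the 3′ windows named was between 0.893 and 1.65. In introns of 60 to 79 nt (1786 introns) the densest window, 51 to 60 nt, was the farthest that could be measured.

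**Figure D4:**
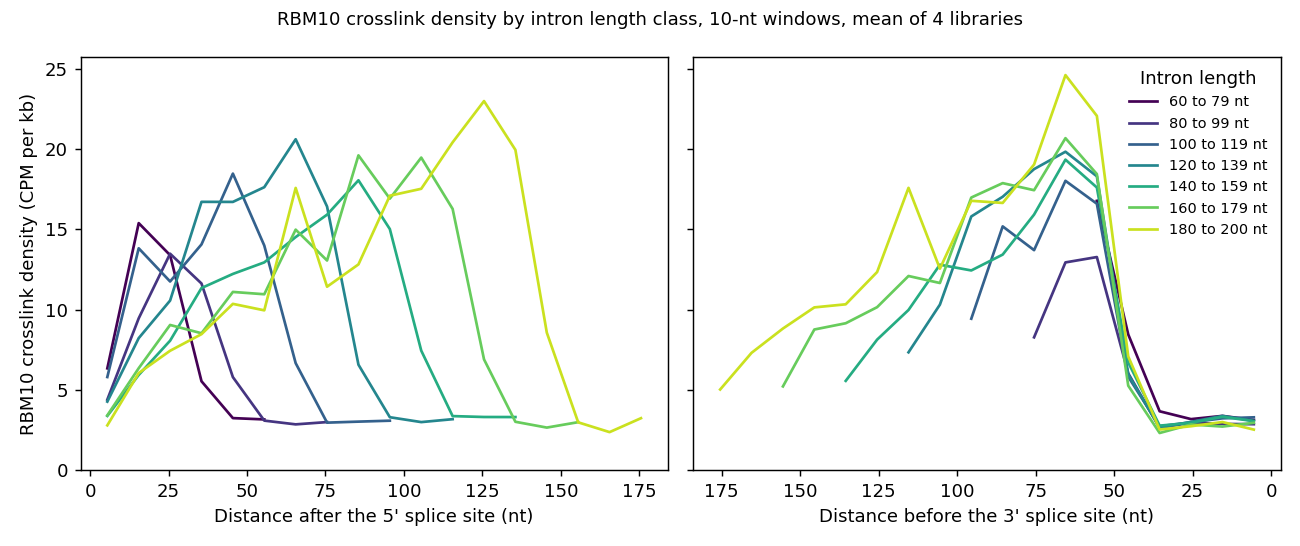
RBM10 crosslink density in CPM per kb in 10-nt windows after the 5′ splice site (left) and before the 3′ splice site (right), as means of 4 libraries for 7 length classes. On the right the curves peak together at 51 to 70 nt, and on the left the peaks spread from 11 to 20 nt in the shortest class to 121 to 130 nt in the longest.

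Cytosine was the base most often crosslinked in short introns by RBM10. It made up 50.7, 50.3, 51.4 and 50.97% of RBM10 crosslinks and 30.01, 17.4, 22.9 and 26.0% of IgG crosslinks, while 25.1% of short intron bases are C. Uracil made up 28.3 ± 0.917% against 39.2 ± 1.76%, guanine 15.6 ± 0.312% against 25.2 ± 2.29% and adenine 5.26 ± 0.367% against 11.5 ± 2.06% (SD, n = 4 each). The groups overlapped for none of the 4 bases (exact permutation p = 0.0286, adjusted 0.0286). The edges of longer introns had nearly the same RBM10 share of C, 50.2 ± 0.700%, and all longer introns together 40.1 ± 6.17%. Among pentamers centred on the crosslinked base with a higher share in RBM10, the difference was largest for UUCCA (1.18 ± 0.254% of RBM10 and 0.279 ± 0.199% of IgG crosslinks) and UUCCU (1.22 ± 0.120% and 0.326 ± 0.294%), followed by CUCCU and CUCCA. All 4 hold C at the centre. IgG library 3 held none of them, but it has only 327 short intron crosslinks, so this says little. In the opposite direction it was largest for UGGGC, at 0.204 ± 0.00634% of RBM10 and 1.18 ± 0.780% of IgG crosslinks, with G at the centre. That rank rests on few crosslinks in the shallow IgG libraries 3 and 4 (1.53 and 2.11%), with 0.496 and 0.567% in libraries 1 and 2. In IgG libraries 1 and 2 CGAGC was higher (1.29 and 1.79%), but nearly all of that came from 1 position. This is chr10:79711962 in an intron of Ndufs7, with 51 of 4029 and 100 of 5641 short intron crosslinks in these libraries. The share of CGAGC is thus no general trait of IgG crosslinks. These are descriptions without a test, since the pentamers were ranked on the same libraries.

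**Figure D5:**
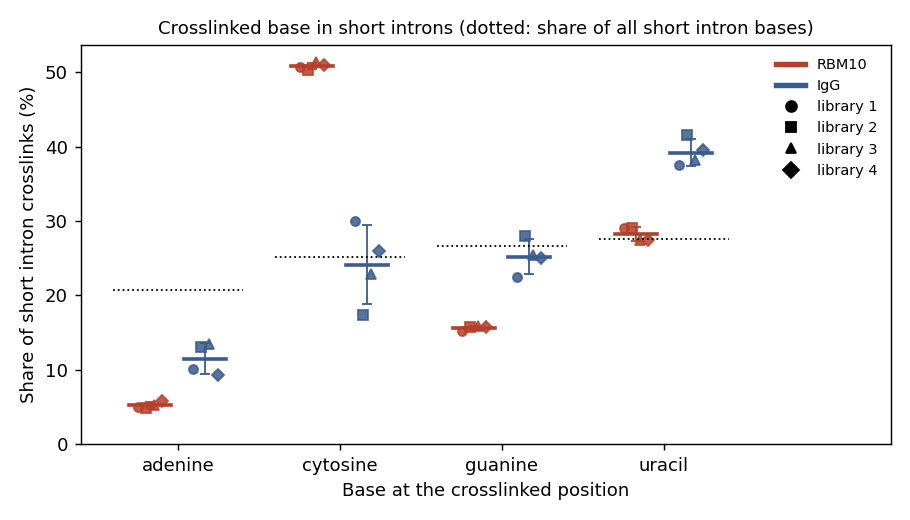
Percent of short intron crosslinks at each base, by library (points), with means (lines) and SD (bars), n = 4 each. Dotted lines give the base's share of all short intron bases. RBM10 libraries lie near 50.8% at cytosine, above every IgG library and above the 25.1% of bases.

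Introns richer in C carried more RBM10 crosslinks per base, but the difference from IgG did not pass the test. In the 8015 intron loci with the highest share of C (28.1% and up), RBM10 density was 10.3 ± 2.58 CPM per kb, against 6.68 ± 1.96 in the 8016 loci with the lowest share (up to 21.5%). IgG density was 1.17 ± 0.374 and 1.02 ± 0.115 (SD, n = 4 each). The log2 ratio of the 2 groups was 0.76, 0.61, 0.52 and 0.65 in RBM10 and 0.54, -0.25, 0.09 and 0.22 in IgG libraries, where IgG library 1 lay above the lowest RBM10 library. The difference of 0.49 had an exact permutation p of 0.0571. It was 0.53 (p = 0.0286, exact permutation) when each crosslinked position counted once and 0.62 (p = 0.0286, exact permutation) without IgG library 1. Median GC content was 44.0% in the loci with the lowest and 58.3% in those with the highest share of C, and its part in the result was not tested.

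RBM10 crosslinks were spread unevenly over the short introns. A crosslink was found in 13115 of 24390 loci (53.8%) with RBM10 and in 4894 (20.1%) with IgG, and in all 4 libraries in 3799 loci (15.6%) with RBM10 and 8 with IgG. These counts depend on depth, and the RBM10 libraries were deeper in sum. IgG libraries 3 and 4 held only 327 and 427 short intron crosslinks, so few loci could be reached in all 4 IgG libraries. The median locus held 1 RBM10 crosslink over 4 libraries and the highest 1722, and 1140 loci (4.67%) held 50% of all of them. Density followed the RNA level of the host gene in the wild-type line. In CPM per kb it was 0.343 ± 0.0725 in RBM10 and 0.0371 ± 0.0234 in IgG for hosts under 1 TPM, 5.98 ± 1.39 and 0.797 ± 0.191 at 1 to 10 TPM, 14.4 ± 3.67 and 1.71 ± 0.455 at 10 to 100 TPM, and 37.6 ± 12.0 and 5.17 ± 1.08 from 100 TPM up (SD, n = 4 each). Each class of higher RNA level had a higher density with both antibodies, and the ratio of their means was 9.26, 7.50, 8.39 and 7.27 in the 4 classes. The share of loci with an RBM10 crosslink went from 7.45% to 68.2, 87.8 and 93.6%. The gene with the most measurable short introns was Ttn, which encodes the muscle protein titin (189), followed by Col7a1 (84) and Lama5 (54).

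Single introns were tested with edgeR's quasi-likelihood test over introns of all lengths (13482 loci past the filter on low counts). In this fit 50.5% of all tested introns were called, 32.1% higher in RBM10 and 18.4% lower, at a Benjamini-Hochberg adjusted p under 0.05. Of the 24390 short loci 159 passed the filter, and 158 of them were called higher and 1 lower. A short intron could pass almost only through its RBM10 crosslinks, since just 5 of the 159 had a crosslink in all 8 libraries and 73 had 3 or fewer IgG crosslinks, so these counts are not read as evidence about the members. With a filter of at least 10 crosslinks, 4902 were tested, 1868 were called higher and 12 lower. Of the 49 among these with at least 10 IgG crosslinks, a choice made after seeing the data that favours the opposite direction, 25 were called higher and 6 lower, and 33 had a fold change above 0. The median log2 fold change of all introns tested was 0.20, and 0.46 without TMM factors and 0.86 with DESeq2, so single values are read against these. The split of calls over all introns moved with it, from 4325 higher and 2479 lower to 5149 and 1714 without TMM factors and 5506 and 441 with DESeq2.

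Matrix and actin genes held several of the introns with the lowest p. Their RNA was abundant in the wild-type line (means of 326 TPM for Thbs1, 184 for Flna and 435 for Col1a1). Over the hosts of the 15 introns with the lowest p it ran from 1.03 (Arhgef40) to 1601 TPM (Pabpc1). The part of RNA level in the low p was not tested. In the 186-nt intron of Thbs1 (chr2:117945772-117945957), the gene of the secreted glycoprotein thrombospondin 1, RBM10 libraries held 152, 107, 322 and 266 CPM and IgG libraries 10.4, 0, 0 and 6.33. The lowest RBM10 library was far above the highest IgG one, and the log2 fold change was 5.42 ± 0.57 (SE; edgeR adjusted p = 9.81e-18). This intron passed the filter mainly through RBM10 and was named for its low p, which is given as a rank. Leaving out IgG library 1 gave 8.11, and leaving out IgG library 2 gave 4.39. Another Thbs1 intron (chr2:117948838-117949003) held 42.2, 22.5, 138.8 and 71.0 against 2.07, 1.35, 0 and 0 CPM, with RBM10 library 3 the highest. Its most crosslinked position lies 82 nt before the 3′ splice site, at the capital nearest that end of its sequence. Flna encodes filamin A, which links actin filaments. Its intron at chrX:71474532-71474719 held 86.1, 60.8, 110 and 92.9 CPM with RBM10, and of the IgG libraries only library 1 held any (5.18 CPM).

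Some introns of genes with other roles had 0 or 1 IgG crosslink. In the 110-nt intron of Vrk1 (chr12:107294121-107294230), which encodes a nuclear protein kinase, RBM10 libraries held 26.9, 16.5, 64.3 and 51.6 CPM and no IgG library had a crosslink. Against the limit of 3 crosslinks over the pooled IgG libraries, that is at least 45.4-fold higher (edgeR adjusted p = 8.53e-13). The intron passed the filter on low counts through RBM10 alone, so this p gives its rank and is no separate support. Of its RBM10 crosslinks 70% lay 51 to 70 nt before the 3′ splice site, around the 3 adjoining capitals of its sequence. Mitd1, a cytokinesis gene, likewise had no IgG crosslink in the intron chr1:37936209-37936404 and 18.8, 21.8, 36.2 and 42.6 CPM with RBM10 (at least 33.1-fold higher). The Mak16 intron held 472 RBM10 crosslinks (43.1, 41.8, 90.0 and 63.2 CPM) and 1 IgG crosslink. The pooled ratio of 214 has a 95% counting interval of 38.3 to 8477. Ankrd1, an ankyrin repeat gene, had 439 and 1 in its intron (ratio 199, interval 35.6 to 7886), and Ddb1, which encodes an adaptor of a ubiquitin ligase, 344 and 1 (ratio 156, interval 27.8 to 6183). These intervals cover counting error only, and their width shows that the size of such folds is poorly known.

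The other introns among the 15 with the lowest p lie in Flna (chrX:71482579-71482759), Col1a1 (chr11:94805723-94805911), Traf7, Ebna1bp2, Pfkm, Pabpc1 and Arhgef40. They held 250 to 620 RBM10 and 1 to 11 IgG crosslinks each. RBM10 and IgG libraries overlapped in none of the 15, a condition of the rule that named them. Over all introns tested the groups did not overlap in 39.9%, with RBM10 above IgG in 30.3%. Leaving out any 1 library kept the call of each of the 15. The most crosslinked base was C in all 15, and its distance to the 3′ splice site ran from 58 nt (Col1a1 and Arhgef40) and 59 nt (Ddb1) to 124 nt (Ankrd1) and 132 nt (Mak16). Single introns thus differed from the summed profile in where their crosslinks lay. In Pabpc1, the gene of the cytoplasmic poly(A)-binding protein, 73.7% of RBM10 crosslinks lay 51 to 70 nt before the 3′ splice site, and in the intron of Pfkm, a glycolytic enzyme, 4.17%.

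The most crosslinked short intron of all behaved differently. This 107-nt intron of Ndufs7 (chr10:79711950-79712056), whose gene encodes a subunit of respiratory complex I, held 1722 RBM10 crosslinks, at 204, 208, 228 and 328 CPM, and 232 IgG crosslinks, at 90.1, 63.2, 38.8 and 6.33 CPM. Its log2 fold change of 1.83 ± 0.41 (SE; edgeR adjusted p = 5.84e-05) fell to 0.15 (edgeR adjusted p = 0.756) when each position counted once. Crosslinks fell on only 36 positions of this intron, which caps that count in every library. The fall therefore cannot show where the excess lay, but the counts by position do. At 79711968, 79711969 and 79711970 RBM10 libraries held 385, 639 and 135 crosslinks and IgG libraries 5, 7 and 3. At 79711962 they held 280 and 154. Of its crosslinks 97.4% with RBM10 and 97.8% with IgG lay in the first 21 nt, but the 2 antibodies differed within them. RBM10 was highest on the position 20 nt from its start (639 of 1722, IgG 7 of 232). IgG was highest at 79711962 (154 of 232, RBM10 280 of 1722). The first 21 nt contain GGTTCGA, letters that also occur in the internal promoter of tRNA genes. Of 27922 short intron loci of at least 7 nt, 17 (0.0609%) contain it on the transcribed strand and 15 on the other strand, which is a description and no assignment.

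The 1 short intron called lower lies in Eef2, the gene of translation elongation factor 2. This intron (chr10:80641638-80641825) held 26.0, 22.8, 4.92 and 20.7 CPM with RBM10 and 41.4, 25.3, 19.4 and 94.9 CPM with IgG. The groups overlapped, and the log2 fold change was -1.32 ± 0.42 (SE; edgeR adjusted p = 0.00581), lost with DESeq2 (adjusted p = 0.171) and without RBM10 library 3 (edgeR adjusted p = 0.117). The intron contains Snord37, a small nucleolar RNA, at 80641695 to 80641758, whose bases had been removed as an exon, so that 124 of 188 bases were counted. In the 10 nt just before Snord37 lay 86 of the 124 RBM10 crosslinks (69.4%) and 97 of the 113 IgG crosslinks (85.8%). Of the 16 other short introns with an annotated snoRNA gene, 8 had bases left, and these held 365 RBM10 and 29 IgG crosslinks, unlike the intron of Eef2.

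Crosslinks were also summed over all short introns of a gene and tested with edgeR together with the sums over longer introns (7865 rows). Of these rows 47.5% were called, 25.8% higher in RBM10 and 21.7% lower. Of 376 short intron rows past the filter, 355 were called higher and none lower, with 362 at an unadjusted p under 0.05 in either direction and none lower with DESeq2 (347 higher). These rows too passed mostly through RBM10 crosslinks. With at least 10 crosslinks as the filter, 1354 of 2766 were called higher and 4 lower, and of the 202 with at least 10 IgG crosslinks 133 were higher and 3 lower. All rows had a median log2 fold change of 0.11, and 0.74 without TMM factors and 0.29 with DESeq2. Calls over all rows went from 2027 higher and 1710 lower to 3818 and 559 without TMM factors and 2276 and 1207 with DESeq2.

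The 10 genes with the lowest p in this test were Ankrd1, Thbs1, Traf7, Flna, Prpf39, Fasn, Arhgef40, Col7a1, Pfkm and Slc38a2. Within a gene the crosslinks were divided unevenly among its short introns. Thbs1 held 2800 RBM10 and 57 IgG crosslinks in 7 short introns, with 58 to 1598 per intron and 57.1% in the highest. Flna held 2341 and 78 in 30 short introns, with 2 to 653 per intron. In Pfkm, which has 4, a single intron held 95.2% of 353. Fasn, which encodes fatty acid synthase, was more even, with 16.7% of 1439 in the highest of 31. Col1a1, a type I collagen gene, held the most of all genes, with 5977 RBM10 and 242 IgG crosslinks in 34 short introns (19 to 870 per intron, 14.6% in the highest). The other type I collagen gene, Col1a2, held 2051 and 116 in 10. Every short intron of these collagen genes had crosslinks with both antibodies. Col7a1, the collagen of anchoring fibrils, has 84 short introns, of which 65 had an RBM10 crosslink and 4 an IgG crosslink (414 and 7 in all).

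Short introns of host genes grouped by function were described over all their loci, tested or not. Density in CPM per kb was higher with RBM10 than with IgG in each of 10 lists, and the libraries overlapped in none of them. The 64 splicing factor and RNA-binding protein genes with a short intron (206 loci, 190 with an RBM10 crosslink) held 23.2 ± 5.93 with RBM10 and 2.69 ± 0.638 with IgG (SD, n = 4 each). Among them, Snrnp70 (a U1 snRNP protein) had 128 RBM10 and 1 IgG crosslink, Sf3b2 (a U2 snRNP subunit) 131 and 0, and Ewsr1 261 and 8. Collagen and matrix genes (27 genes, 369 loci) held 40.7 ± 17.3 and 4.62 ± 1.73, and actin and myosin cytoskeleton genes (22 genes, 178 loci) 37.1 ± 9.63 and 4.44 ± 1.03. Plec (plectin) had 828 and 61 crosslinks there and Tln1 (talin) 566 and 25.

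Glycolysis genes (13 genes, 31 loci) were at 52.8 ± 14.3 with RBM10 and 2.78 ± 2.23 with IgG, with 352 and 14 crosslinks in Gapdh and 165 and 7 in Eno1. Cytosolic ribosomal protein genes (45 genes, 63 loci) were at 47.7 ± 15.6 and 12.3 ± 7.36, where shallow IgG library 3 was at 23.3 and the other IgG libraries at 7.51 to 9.49, and Rps9 held 456 and 15. Translation factors (25 genes, 87 loci) were at 39.3 ± 9.72 and 9.33 ± 2.64, interferon response and antigen presentation genes (15 genes, 45 loci) at 36.0 ± 6.44 and 5.35 ± 1.13, and aminoacyl-tRNA synthetases (14 genes, 67 loci) at 21.9 ± 8.69 and 2.70 ± 1.31. RNA polymerase II and Mediator genes (19 genes, 99 loci) were at 14.6 ± 4.17 and 2.15 ± 0.625, and Fanconi anaemia and recombination repair genes (14 genes, 40 loci) at 10.5 ± 2.92 and 0.491 ± 0.624. All 8 libraries came from cells grown with interferon. In the gene test 1 to 11 rows of each list were tested and 53 of 56 over the 10 lists were called higher (25.8% over all rows), which is the level of all short intron rows tested (355 of 376). List medians of 2.25 to 3.18 lay around the 2.68 of those rows, against 0.11 over rows of all introns. These rows passed the filter mostly through RBM10, so the counts say nothing particular to the lists. No test compares the lists with each other, and the part of RNA level in their differences was not tested.

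Whether the fold over IgG differed between the short and the longer introns of the same gene was tested as an interaction in edgeR, over 2720 genes with at least 10 crosslinks in each class. In 31.9% of these genes the difference was called, with the fold higher in short introns in 855 (31.4%) and lower in 12 (0.441%), with a median log2 difference of 2.06. The filter again admits short introns mainly through RBM10. Of the genes with at least 10 IgG crosslinks in short introns, 59 were called higher, 7 lower and 135 neither, with a median of 0.71. With the replicate pair as a block 544 were called higher and 6 lower, and without IgG library 2 153 and 6. Longer introns include their deep interior, where density was low with both antibodies.

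Vrk1 had the lowest p, with 300 RBM10 and 0 IgG crosslinks in short introns and 670 and 238 in longer ones (log2 difference 9.34, edgeR adjusted p = 1.34e-13, a size that depends on the prior count). Its short introns passed the filter through RBM10 alone, so this p too is only a rank. The counts here are raw sums over libraries, and the RBM10 libraries were deeper in sum, so more RBM10 than IgG crosslinks need not mean an excess at equal depth. Epb4.1l2, a membrane skeleton gene, had 257 RBM10 and 3 IgG crosslinks in short and 2300 and 1193 in longer introns. Tm9sf3 had 280 and 5 against 578 and 269, and Mpp6 123 and 2 against 544 and 347. Prpf39, which encodes a U1 snRNP-associated splicing factor, had 554 and 8 in short and 777 and 254 in longer introns (difference 4.39, adjusted p = 5.21e-12 by edgeR). In the gene test its longer introns had a log2 fold change of 0.05 (edgeR adjusted p = 0.906) and its short introns 4.23. Before TMM scaling its longer introns held 101 ± 10.3 CPM with RBM10 and 48.0 ± 35.8 with IgG (SD, n = 4 each). In its 6 short introns 59, 123, 318 and 54 RBM10 crosslinks stood against 1, 7, 0 and 0 in IgG.

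In the opposite direction, Cct6a, a subunit gene of the cytosolic chaperonin, had 47 RBM10 and 34 IgG crosslinks in short and 1165 and 96 in longer introns (log2 difference -3.11, edgeR adjusted p = 2.78e-07). Counts are again raw sums, not scaled for depth. Cdt1, a replication licensing gene, had 50 and 12 in short and 411 and 11 in longer introns (-3.17, edgeR adjusted p = 8.99e-04). Ccdc80, which encodes a secreted protein, had 5 and 10 against 616 and 122. Sf3b3, which encodes a U2 snRNP subunit, had 7 and 8 in short introns against 5802 and 572 in longer ones. Its difference of -3.43 lost the call when each position counted once (edgeR adjusted p = 0.0708) and without IgG library 1 (0.0879). Cyth2 had 67 and 16 against 355 and 21, and lost its call with the replicate block (edgeR adjusted p = 0.148), with each position counted once (0.121) and without IgG library 1 (0.0839) or 2 (0.173). In each of these genes the crosslinks in short introns came from both antibodies, and in Sf3b3 and Ccdc80 they were few.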

How the data were processed

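The iCLIP files that the authors deposited list whole-number crosslink counts by position and strand, 1 file for each of 8 libraries, and per the series' design text reads had been mapped to mm9. The RNA-seq values deposited by the authors are TPM of transcripts. Of these, 84877 of 100249 transcripts (84.7%) matched GENCODE vM1 by identifier, and wild-type TPM was used for host levels and markers alone. For aligner and strandedness the sources used here give nothing. Whether copies of a molecule were collapsed is not stated either, so each position was also counted once as an alternative. With these counts, RNA of a gene and of an overlapping gene on the same strand cannot be told apart.

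Sequences, annotation and coordinates are mm9 and GENCODE vM1. Groups and replicate numbers came from the sample titles. CPM is crosslinks for every 1000000 in the library, and density is CPM per kb of remaining bases. Numbers of RBM10 and IgG crosslinks given side by side are raw sums over libraries, and the RBM10 libraries were deeper in sum. Library values were compared by 2-sided exact permutation over 70 splits of 4 against 4. Loci and genes were tested with edgeR 4.0.16 (glmQLFit, TMM, filterByExpr, R 4.3.3) with Benjamini-Hochberg adjustment over all rows. DESeq2 1.42.0, the replicate pair as a block, no TMM factors, other filters, counting each position once, introns of at least 60 nt and leaving out each library were alternatives. The 3 main edgeR fits, but not the alternatives, were tested on simulated data with 4-fold changes. The locus test recovered 98.4% of these with 4.71% false calls and the gene test 99.0% with 1.50%. The interaction test recovered 34.2% with 6.94% false calls, so it missed most changes of that size. Only 185 to 199 simulated rows per fit were changed, up or down about equally, with 1 dispersion for all rows. In the data 50.5% of introns and 47.5% of gene rows were called, so the simulated rates need not hold there. The design text gives each replicate its own IgG control, so the numbers pair the libraries, although deviations of same-numbered libraries from their group means had correlations of only -0.05, 0.02, -0.0022 and -0.02. Scripts used pysam 0.24.0, scipy 1.17.1, pandas 2.3.3 and numpy 2.4.6 under Python 3.11.15.

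Named introns were the 15 with the lowest p called higher without overlap of the groups, up to 5 called lower and the 5 with the most RBM10 crosslinks. Named genes were the 10 with the lowest p called higher, and for the interaction the 5 in each direction, plus up to 4 members of host lists with at least 3 called members. Predicted, RIKEN, microRNA and clone-named symbols were left out. The members, lists and rules were chosen with earlier results of these data known. The knockout and embryonic stem cell RNA-seq was not analysed here.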

Additional observations from a re-analysis of the deposited data

Results flagged for a closer look

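In 92 groups of 4 libraries examined for 1 value far from the others, 5 had one. Chance flags about 1 in 20 such groups if values are normally distributed. The 4 IgG groups flagged below held 4 to 11 crosslinks each, with 0 in libraries 3 and 4, so that rate does not apply to them. RBM10 library 4 lay apart in introns over 2000 nt, with a log2 density of -1.40 against -1.23 to -1.21 in the other 3. In the IgG group, library 1 lay apart in 4 named introns. In the Flna intron at chrX:71474532-71474719 it held 5.18 CPM and the other IgG libraries 0. In the Col1a1 intron at chr11:94805723-94805911 it held 8.29 CPM against 0 to 1.35, in that of Ebna1bp2 4.14 against 0 to 0.452, and in that of Pfkm 3.11 against 0 to 0.452. All 4 values are below the lowest RBM10 library of the same intron, which the rule that named these introns required.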

How the results depend on the processing

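Sign flips of the 4 pairs (replicate block) left the differences at 2.18 points for the share, 2.56 for short over longer introns and 3.08 for short introns over host exons, each with an exact p of 0.125, the smallest that 4 pairs allow. For the same reason 0 zones, 0 bases and 0 length bins pass as pairs. In the comparison with intron edges the 51 to 70 nt window turned the difference from 0.10 to -0.51, and leaving out a library gave 0.058 to 0.162. The C content difference was 0.53 with each position counted once, which passed, and 0.36 to 0.62 without 1 library. Short introns called higher by locus numbered 158 of 159 tested, and 61 of 62 with each position counted once, 1868 of 4902 with at least 10 crosslinks, 389 of 407 with pairs 1 and 2 alone (chosen after seeing the data) and 132 to 312 of 134 to 323 without 1 library. Those called lower went from 1 to 0 with each position counted once, 0 with DESeq2, 12 with at least 10 crosslinks, 3 with pairs 1 and 2 alone and 0 to 2 without 1 library. By gene, 355 higher of 376 became 1354 of 2766 with at least 10 crosslinks, 582 of 663 with pairs 1 and 2 alone and 317 to 546 of 337 to 597 without 1 library, and 0 lower became 4 with at least 10 crosslinks and 0 to 1 without 1 library. The interaction gave 855 higher and 12 lower, against 544 and 6 with the replicate block, 5 lower with each position counted once, and 153 to 905 higher and 6 to 14 lower without 1 library, lowest without IgG library 2. Where more than 159 loci or 376 gene rows were tested, more were called higher, and where fewer, fewer, except by gene without IgG library 2 (323 of 482). The cause of the other changes was not tested. The block ended no call of a named intron or gene other than Cyth2. IgG libraries 3 and 4 held 327 and 427 short intron crosslinks against 4029 and 5641 in IgG libraries 1 and 2, which limits tests by locus.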
